A study of Mus musculus with 33 samples.

Results

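The DNA replication genes described here are 39 genes given by symbol, found among 37620 genes in the deposited count tables, and all 39 were present and passed the filter on low counts. They cover the steps from origin licensing to the joining of new strands, with the supply of deoxynucleotides and cyclin E. The counts came from mouse cells carrying inducible Sox2, Klf4 and Myc (SKM), a factor set that leaves out Oct4. Secondary MEFs (mouse embryonic fibroblasts) and secondary NPCs (neural progenitor cells) were followed on days 0, 2, 4, 8 and 12 of doxycycline in mouse ES medium, with 2 RNA-seq libraries per origin and day. The pluripotent lines, 1 library each, were R1 ESC, which are embryonic stem cells, and SKM iPSC, which are induced pluripotent cells named for the same factor set. The SKM iPSC column is headed SKM_9, was assigned as the remaining column with that prefix, and every value for SKM iPSC and for the mean of the lines rests on this. The MEF libraries of days 4, 8 and 12 and the NPC libraries of days 8 and 12 were labelled GFP, and the study describes its RNA-seq as that of cells positive for EGFP. The NPC libraries titled day 2 and day 4 carry stage labels of day 0 and day 2, and the day is taken from the titles here, as in the column headings of the count table. The labels name neither the reporter gene nor the way SKM was inserted, and give a different RNA extraction for sorted cells than for cultured cells. Time, sorting and extraction therefore cannot be told apart at the steps where the GFP label begins. The same holds for day 12 over day 0, on which the day 12 responses rest. Day 12 against the lines also sets libraries labelled GFP against libraries without that label. Nothing in the labels says that the libraries of a group came from separate cultures, so each p-value measures only the spread between these libraries.

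A cell copies its genome once per division in an ordered way. The origin recognition complex with Cdc6 and Cdt1 loads the Mcm2-7 helicase on origins in G1 (licensing), geminin (Gmnn) blocks Cdt1 afterwards, and the Cdc7-Dbf4 kinase with Mcm10, Cdc45 and GINS switches the helicase on (firing). Primase and polymerase alpha start each strand, the Rfc clamp loader places the Pcna clamp, polymerases delta and epsilon extend, Fen1 and Lig1 finish Okazaki fragments, and ribonucleotide reductase and thymidylate synthase supply deoxynucleotides. Cyclin E with Cdk2 promotes entry into S phase, and many of these genes are known E2F targets whose mRNA is high in cycling cells. Embryonic stem cells are known for rapid cycles with a short G1 and high cyclin E.

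Promoter sequence was one feature that the list of genes did not use. RefSeq promoters of GRCm38.p6, each 300 bases long (250 before and 50 after the annotated start), were found for 30 of the 39 genes. The letters TTTGGCGC, TTTCCCGC, TTTGCCGC and TTTCGCGC, spellings of the E2F site searched on both strands, stood in the promoters of 12 of these 30 genes (40.0%). They stood in those of 704 of 27025 genes in the same table (2.6%). CCAAT, the letters bound by NF-Y, stood in 18 of 30 (60.0%) against 41.1% of all genes, and the E-box CACGTG in 5 of 30 (16.7%) against 8.1%. Such a match is a run of letters and not a measured binding site. The promoters of Mcm6, Mcm5, Orc1 and Cdc6 are shown as licensing genes with a match, and that of Ccne1 for its different course. No match was found in its window, nor in those of Mcm10, Pcna, Mcm2, Rrm2 and Prim1. Like most of the list, these other genes had their lowest means at day 0 in MEFs and at day 4 in NPCs, though not all peaked at day 8. The Mcm10 window ends in the letters TTTGGCG, so a TTTGGCGC reaching past its end would not be found. Capitals mark the E2F matches, bases run 5′ to 3′ in the gene's direction, and the overlapping matches of Mcm6 and of Mcm5 appear as single capital runs.
Mcm6 (chr1:128359656-128359955, minus strand): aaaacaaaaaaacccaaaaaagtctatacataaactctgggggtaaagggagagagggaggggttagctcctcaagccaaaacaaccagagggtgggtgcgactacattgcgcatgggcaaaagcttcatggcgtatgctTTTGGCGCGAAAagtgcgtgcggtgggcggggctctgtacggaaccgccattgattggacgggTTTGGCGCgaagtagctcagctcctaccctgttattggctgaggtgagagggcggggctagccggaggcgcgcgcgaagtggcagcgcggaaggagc
Mcm5 (chr8:75109259-75109558, plus strand): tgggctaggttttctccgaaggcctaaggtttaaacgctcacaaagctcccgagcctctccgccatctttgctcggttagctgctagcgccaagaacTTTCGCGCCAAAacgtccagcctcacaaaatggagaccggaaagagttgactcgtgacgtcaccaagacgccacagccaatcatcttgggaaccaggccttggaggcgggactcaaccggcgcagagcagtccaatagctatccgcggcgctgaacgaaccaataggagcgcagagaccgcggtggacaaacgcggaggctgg
Orc1 (chr4:108579204-108579503, plus strand): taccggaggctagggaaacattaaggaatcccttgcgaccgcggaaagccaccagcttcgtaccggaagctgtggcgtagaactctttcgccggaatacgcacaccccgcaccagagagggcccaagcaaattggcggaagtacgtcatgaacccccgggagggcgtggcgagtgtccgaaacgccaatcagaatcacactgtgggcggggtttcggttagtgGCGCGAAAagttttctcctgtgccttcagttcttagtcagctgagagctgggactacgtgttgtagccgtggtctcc
Cdc6 (chr11:98907901-98908200, plus strand): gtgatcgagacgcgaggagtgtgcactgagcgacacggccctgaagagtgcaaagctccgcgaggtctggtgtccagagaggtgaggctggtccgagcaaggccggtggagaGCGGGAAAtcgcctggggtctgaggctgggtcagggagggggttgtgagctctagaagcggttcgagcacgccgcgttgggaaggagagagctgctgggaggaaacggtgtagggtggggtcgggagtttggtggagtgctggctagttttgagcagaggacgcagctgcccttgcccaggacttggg
Ccne1 (chr7:38107441-38107740, minus strand): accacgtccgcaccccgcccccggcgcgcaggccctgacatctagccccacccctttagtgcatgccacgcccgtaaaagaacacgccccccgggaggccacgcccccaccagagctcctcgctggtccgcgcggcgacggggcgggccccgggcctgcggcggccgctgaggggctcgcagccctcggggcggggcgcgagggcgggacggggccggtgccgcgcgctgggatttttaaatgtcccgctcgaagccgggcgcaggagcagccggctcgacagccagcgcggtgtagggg

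Relative to the annotated start, the matches began at -110, -106 and -47 in Mcm6, at -153 and -149 in Mcm5, at -27 in Orc1 and at -138 in Cdc6. The other genes with a match were Mcm3, Mcm7, Rfc3, Lig1, Pold1, Gins3, Cdt1 and Pola1.

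The 22 libraries held between 15902838 and 20102260 counts each. The CPM of a gene is its count relative to the TMM-scaled library total, without division by gene length, so levels are compared between libraries and not between genes. These marker sums were highest in the groups they are named for: 10 fibroblast genes summed to 38445 and 18353 CPM in day 0 MEFs, 6 neural progenitor genes to 2848 and 2847 CPM in day 0 NPCs, and 8 pluripotency genes to 7035 CPM in R1 ESC and 5752 CPM in SKM iPSC. The neural progenitor genes also summed to 124 and 338 CPM in day 0 MEFs, with 1 and 2 of the 6 at 0. Pluripotency genes summed to 537 and 557 CPM at day 12 of MEF origin and to 721 and 616 CPM at day 12 of NPC origin. Some libraries stood apart. The day 0 MEF replicates differed most, with replicate 1 higher for 31 of the 39 replication genes, a difference of more than 1 in log2(CPM + 1) for 6 of them, and 10 macrophage genes at 213 CPM in replicate 1 and 416 CPM in replicate 2. Day 4 NPC replicate 1, whose column heading says feeder, held 3610.5 CPM of fibroblast genes and 99.9 CPM of macrophage genes, against 667 and 7.39 CPM in replicate 2, headed nofeeder. All 10 macrophage genes had counts in replicate 1, and 2 of the 10 were at 0 in replicate 2. The day 8 NPC replicates differed by more than 1 in log2(CPM + 1) for 4 replication genes, Mcm4, Cdc7, Pola1 and Ccne2, all lower in replicate 1.

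Most replication genes followed a shared course within each origin, from a low start in MEFs and a higher one in NPCs. In MEFs 34 of the 39 had their lowest mean at day 0 and 22 their highest at day 8. In NPCs 32 had their lowest mean at day 4 and 20 their highest at day 8. As a percentage of the mean of the pluripotent lines, the median gene of the list stood at 16.9% at day 0, 56.7% at day 2, 44.1% at day 4, 64.5% at day 8 and 42.4% at day 12 in the MEF course. In the NPC course it stood at 42.3%, 50.6%, 26.9%, 56.5% and 43.3% on the same days. RNA of whole cultures or sorted pools was measured, so fewer cells in S phase and less of these RNAs per cell cannot be told apart.

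**Figure D1:**
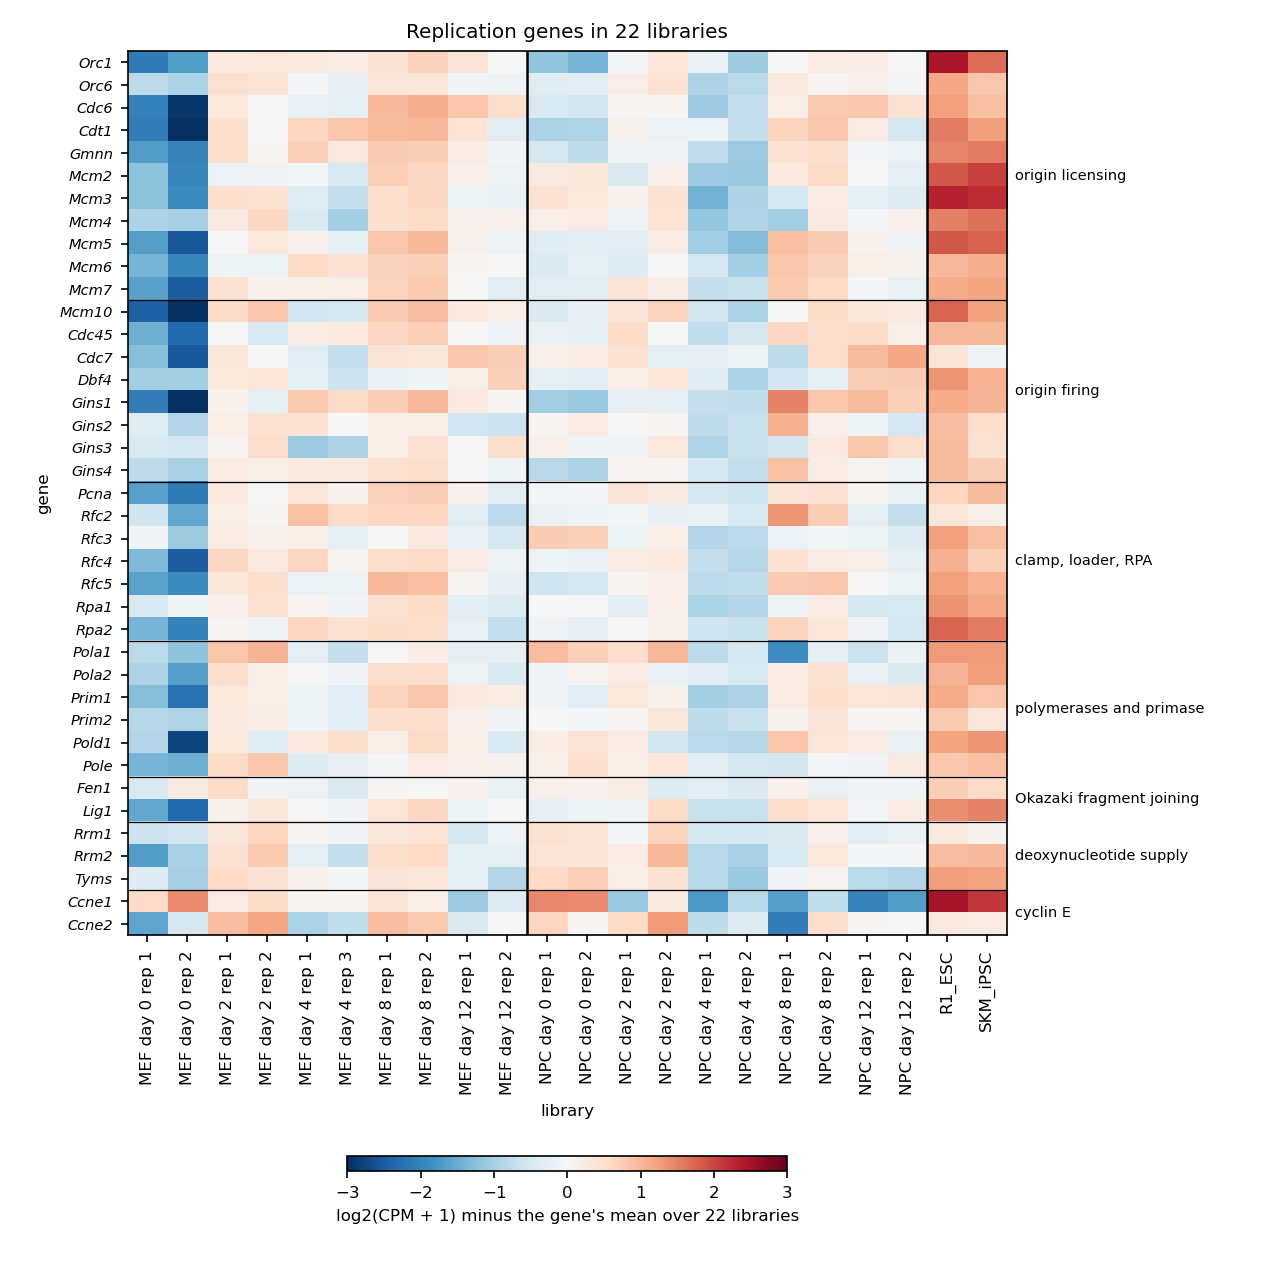
Rows are the 39 replication genes grouped by role and columns the 22 libraries, MEF course, NPC course and pluripotent lines. Colour is log2(CPM + 1) minus the gene's mean over all libraries, red above and blue below that mean. Day 0 MEF and day 4 NPC columns are blue for most genes, and Ccne1 is the row that is red at day 0 in both courses.

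**Figure D2:**
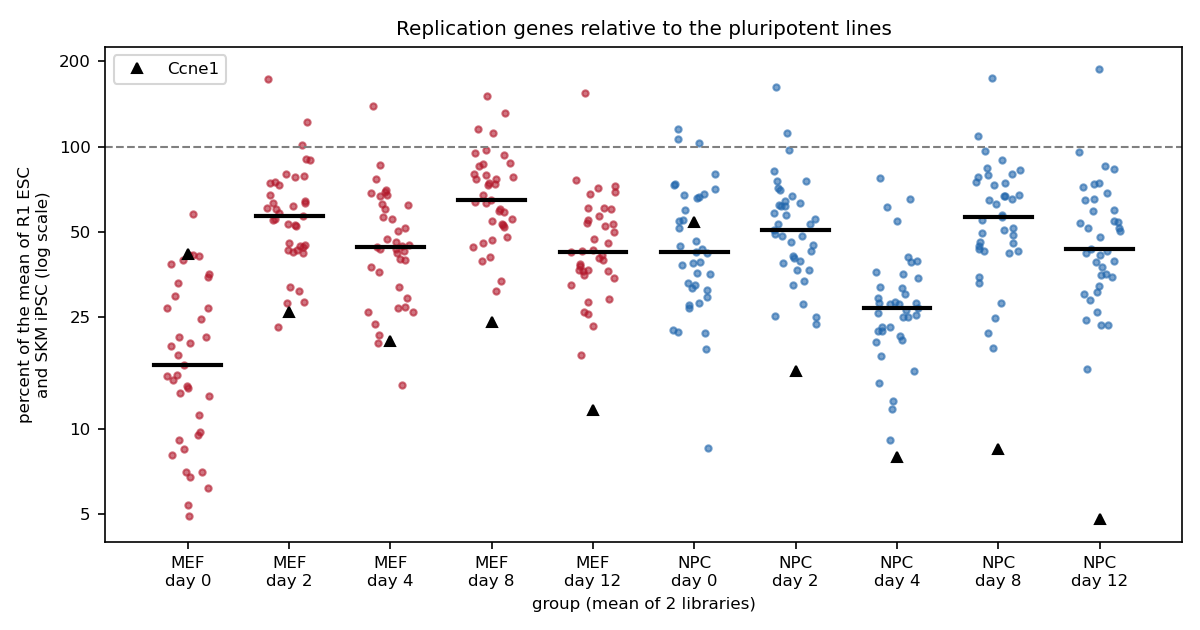
Each point is a gene's group mean over 2 libraries as a percentage of its mean in R1 ESC and SKM iPSC, on a log scale, and black bars are medians over the 39 genes. The medians run from 16.9% at day 0 to 64.5% at day 8 in MEFs and between 26.9% and 56.5% in NPCs, while Ccne1 (triangles) falls to 11.7% in MEFs and 4.81% in NPCs at day 12.

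The licensing genes load the helicase and are given first. Mcm5, a subunit of the Mcm2-7 helicase, measured 52.6 and 27.9 CPM at day 0, 167 and 209.8 at day 2, 182 and 139 at day 4, 299 and 331 at day 8 and 184 and 151 CPM at day 12 of MEF origin. The NPC course gave 129.7 and 132 CPM at day 0, 134 and 196 at day 2, 81.9 and 67.4 at day 4, 313 and 287 at day 8 and 181 and 158 CPM at day 12. Both MEF day 0 libraries were below every other MEF library, both NPC day 4 libraries were below every other NPC library, and no course library reached the 609 CPM in R1 ESC and 578 CPM in SKM iPSC. Mcm2, another helicase subunit, measured 58.7 and 35.1 CPM at day 0, 123 and 130.5 at day 2, 134 and 102 at day 4, 231 and 216 at day 8 and 155 and 125 CPM at day 12 in MEFs. Its NPC course gave 169 and 178 CPM at day 0, 104 and 155 at day 2, 65.2 and 64.4 at day 4, 171 and 209 at day 8 and 142 and 116 CPM at day 12. All of these lay below the 511 CPM in R1 ESC and 587 CPM in SKM iPSC, and in NPCs only day 8 replicate 2 exceeded both day 0 libraries of Mcm2. Mcm7, also of the helicase, measured 73.7 and 40.8 CPM at day 0, 315 and 249 at day 2, 264 and 262 at day 4, 363 and 397 at day 8 and 229 and 182 CPM at day 12 in MEFs. NPC libraries of the gene held 182 and 184 CPM at day 0, 299.9 and 268 at day 2, 141 and 144 at day 4, 395 and 350.3 at day 8 and 224 and 197 CPM at day 12. The day 0 MEF and day 4 NPC libraries were again the lowest of their courses, against 497 CPM in R1 ESC and 524 CPM in SKM iPSC.

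Cdc6, the loader that brings the helicase to the origin, measured 11 and 5.44 CPM at day 0, 59.4 and 47.7 at day 2, 41 and 39.5 at day 4, 94.5 and 103 at day 8 and 85.4 and 69.7 CPM at day 12 in MEFs. Of NPC origin it stood at 34.5 and 32.4 CPM at day 0, 48.7 and 49.7 at day 2, 21.8 and 28.8 at day 4, 55.1 and 82.3 at day 8 and 84.9 and 66 CPM at day 12. The MEF day 8 libraries were the only course libraries above SKM iPSC, where Cdc6 stood at 89.4 CPM, and none reached R1 ESC at 114 CPM. Cdt1, its partner in loading, measured 17.1 and 7.95 CPM at day 0, 106 and 75.4 at day 2, 118 and 133 at day 4, 145 and 150.5 at day 8 and 101 and 60.0 CPM at day 12 in MEFs. In NPCs it measured 38.3 and 39.7 CPM at day 0, 82 and 66.4 at day 2, 66.3 and 45.8 at day 4, 119.7 and 133 at day 8 and 89 and 52.9 CPM at day 12. Day 0 was the lowest point of both courses for Cdt1, and every course library was below the 223 CPM in R1 ESC and 181 CPM in SKM iPSC. Gmnn, which encodes the inhibitor of Cdt1, measured 13 and 10.1 CPM at day 0, 61.9 and 44.9 at day 2, 72.5 and 54.1 at day 4, 75.3 and 73.3 at day 8 and 51.1 and 41.1 CPM at day 12 in MEFs. Its NPC course gave 31 and 25.6 CPM at day 0, 41.1 and 40.4 at day 2, 25.9 and 19.8 at day 4, 59.4 and 63.3 at day 8 and 42.5 and 38.7 CPM at day 12. It was lowest at day 0 in MEFs, its NPC day 0 and day 4 libraries overlapped, and the lines held 122 CPM in R1 ESC and 130.4 CPM in SKM iPSC. Orc1, the regulated subunit of the origin recognition complex, measured 4.53 and 6.41 CPM at day 0, 28 and 28.4 at day 2, 27.8 and 26.2 at day 4, 30.7 and 36.8 at day 8 and 29.8 and 22.4 CPM at day 12 in MEFs. NPC libraries of the gene held 9.34 and 7.96 CPM at day 0, 21.7 and 29.1 at day 2, 19.3 and 10.2 at day 4, 22.8 and 27 at day 8 and 26.4 and 22.9 CPM at day 12. Both day 0 groups lay below all later libraries of their course, and no library of either course reached the lower of the lines, which held 128 CPM in R1 ESC and 74.1 CPM in SKM iPSC.

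Among the firing factors, Cdc45, which forms the active helicase with Mcm2-7 and GINS, measured 17.5 and 9.1 CPM at day 0, 49.2 and 35.7 at day 2, 57.9 and 60.9 at day 4, 76.6 and 82 at day 8 and 49.3 and 44.1 CPM at day 12 in MEFs. Of NPC origin it stood at 42.2 and 40.7 CPM at day 0, 73.3 and 49.4 at day 2, 29.2 and 33.8 at day 4, 76.4 and 71.1 at day 8 and 72.7 and 55.7 CPM at day 12. Its lowest libraries were those of day 0 in MEFs and of day 4 in NPCs, and the lines held 98.2 CPM in R1 ESC and 99.5 CPM in SKM iPSC. Mcm10, a helicase-activating protein, measured 11.8 and 7.78 CPM at day 0, 103 and 121 at day 2, 45.6 and 47.3 at day 4, 118 and 132 at day 8 and 84.5 and 78.6 CPM at day 12 in MEFs. In NPCs it measured 50.4 and 58.2 CPM at day 0, 90.2 and 109 at day 2, 46.6 and 35.2 at day 4, 67.8 and 101 at day 8 and 87 and 83.7 CPM at day 12. The day 0 MEF libraries held less than a library of any other group, days 2 and 8 were the peaks of the MEF course with a low between them, and the lines held 233 CPM in R1 ESC and 161 CPM in SKM iPSC. Pcna, the sliding clamp, measured 101 and 72.4 CPM at day 0, 386 and 319.8 at day 2, 407 and 342 at day 4, 509.6 and 533 at day 8 and 349 and 249.9 CPM at day 12 in MEFs. Its NPC course gave 309.7 and 304 CPM at day 0, 412 and 382 at day 2, 224 and 210.2 at day 4, 412 and 427 at day 8 and 327 and 274 CPM at day 12. Both MEF day 8 libraries were above R1 ESC at 499 CPM and below SKM iPSC at 617 CPM.

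Pola1, the catalytic subunit of polymerase alpha, measured 24.8 and 18.5 CPM at day 0, 79.2 and 89.6 at day 2, 36 and 26.4 at day 4, 43.7 and 51.2 at day 8 and 36.5 and 37.1 CPM at day 12 in MEFs. NPC libraries of the gene held 83.8 and 72.9 CPM at day 0, 62.2 and 88.6 at day 2, 24.9 and 30.7 at day 4, 11.1 and 36 at day 8 and 27.5 and 38.1 CPM at day 12. It peaked at day 2 in MEFs, was high at days 0 and 2 in NPCs and lower in every later library of that course, and the lines held 108 CPM in R1 ESC and 107 CPM in SKM iPSC. Prim1, the catalytic subunit of primase, measured 22 and 10.9 CPM at day 0, 68.8 and 63.3 at day 2, 50.4 and 43.2 at day 4, 88.8 and 98.8 at day 8 and 68.3 and 64.6 CPM at day 12 in MEFs. Of NPC origin it stood at 51.6 and 43.9 CPM at day 0, 68.6 and 59.7 at day 2, 26.4 and 28.5 at day 4, 66.1 and 76.9 at day 8 and 71 and 72.4 CPM at day 12. It followed the helicase genes, with the day 0 MEF and day 4 NPC libraries lowest and 121 CPM in R1 ESC and 98.9 CPM in SKM iPSC. Fen1, the flap endonuclease of Okazaki fragment joining, was counted at 6 to 42 reads per library and at 0.356 to 2.13 CPM over the 22 libraries. It was called in none of the 19 comparisons by edgeR, and in none did it reach an unadjusted p under 0.05. How reads shared by overlapping genes or near-identical copies were counted is not given in the sources used here, so its level is uncertain.

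The deoxynucleotide genes were higher at day 0 in NPCs than in MEFs. Rrm2, the regulated subunit of ribonucleotide reductase, measured 88.2 and 143 CPM at day 0, 386 and 485 at day 2, 231 and 176 at day 4, 409 and 427 at day 8 and 232 and 231 CPM at day 12 in MEFs. In NPCs it measured 368 and 372 CPM at day 0, 330.0 and 561 at day 2, 157 and 144 at day 4, 207 and 353 at day 8 and 278 and 270.4 CPM at day 12. Day 2 replicate 2 of NPC origin was the highest of all 22 libraries, above 536 CPM in R1 ESC and 551 CPM in SKM iPSC. Tyms, thymidylate synthase, measured 36.7 and 23.5 CPM at day 0, 73.6 and 65.4 at day 2, 51.4 and 46 at day 4, 62.6 and 62.3 at day 8 and 39.3 and 25.7 CPM at day 12 in MEFs. Its NPC course gave 72.8 and 78.9 CPM at day 0, 53.9 and 65.8 at day 2, 26.7 and 21.5 at day 4, 45.5 and 50.9 at day 8 and 26.9 and 25.8 CPM at day 12. Its NPC day 0 libraries were the highest of that course, and the lines held 115 CPM in R1 ESC and 109.6 CPM in SKM iPSC.

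**Figure D3:**
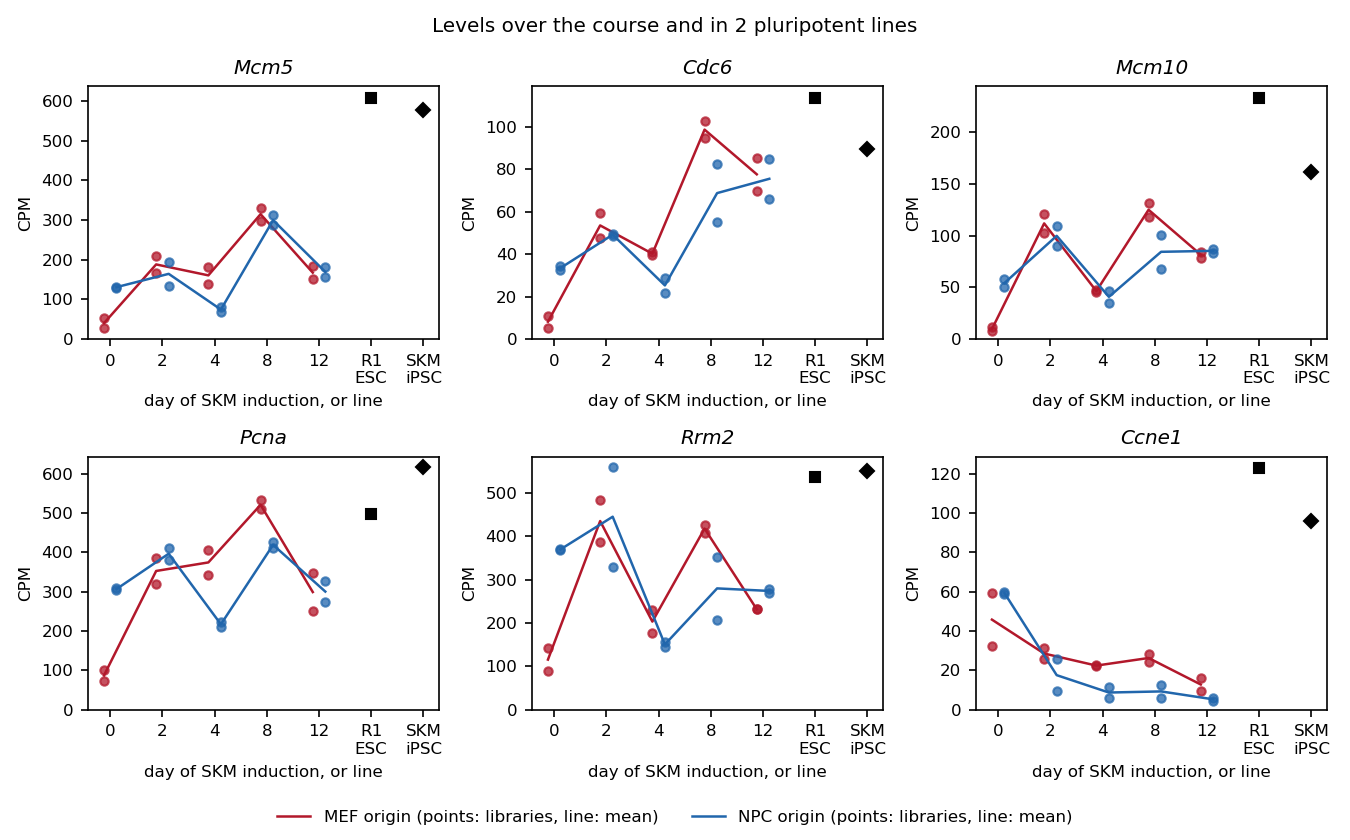
Points are libraries and lines join group means in CPM for Mcm5, Cdc6, Mcm10, Pcna, Rrm2 and Ccne1 on days 0 to 12, with R1 ESC and SKM iPSC at the right. The MEF points start below the NPC points at day 0 for all but Ccne1, the means of both origins lie closer at day 12 than at day 0, and Ccne1 is highest at day 0 in both courses.

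The first 2 days of induction in MEFs were the step at which most replication genes rose: 33 of the 39 were called higher and 0 lower, where 44.4% of 15246 genes tested were called in either direction, 20.6% higher and 23.8% lower (edgeR quasi-likelihood test, Benjamini-Hochberg adjusted over all genes, call at adjusted p under 0.05). Their median log2 fold change was 1.54, against -0.03 over all genes. All 11 licensing genes rose, led by Cdt1, which stood at 106 and 75.4 CPM at day 2 against 17.1 and 7.95 CPM at day 0 (log2 fold change 2.70 ± 0.39 SE, edgeR adjusted p = 0.000588). Of 8 firing genes 7 rose, and Mcm10, at 103 and 121 CPM against 11.8 and 7.78 CPM, had the largest change of the list (3.37 ± 0.26, edgeR adjusted p = 4.58e-05). In both genes the day 2 libraries were far above the day 0 libraries. Of 7 clamp, loader and RPA genes 5 rose, among them Rfc4, a clamp loader subunit, by 2.22 ± 0.41 on the log2 scale. Pole, the catalytic subunit of polymerase epsilon, rose by 2.03 ± 0.22 on that scale, Lig1, the DNA ligase, by 1.99 ± 0.28, Rrm2 by 1.77 ± 0.28 and Ccne2 by 1.92 ± 0.37.

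The 6 that were not called at that step were Gins3 (0.76 ± 0.34), Rfc3 (0.54 ± 0.35), Rpa1 (0.46 ± 0.21), Pold1 (1.44 ± 0.53), Fen1 (0.47 ± 0.74) and Ccne1 (-0.83 ± 0.34). Pold1, the catalytic subunit of polymerase delta, stood at 69.7 and 43.4 CPM at day 2 against 30.2 and 7.44 CPM at day 0, a wide spread between the day 0 replicates. At the same step the fibroblast genes summed to 1272 and 1444 CPM, with none of the 10 at 0, against the day 0 sums above, and the macrophage genes to 24.3 and 13.6 CPM, with 1 of 10 at 0 in each library. Their part in the result was not tested. With any 1 of the 4 libraries left out between 30 and 36 of the 39 were called, so the count stood with either day 0 library alone. Ccne1 was called lower by DESeq2 and without day 0 replicate 1.

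**Figure D4:**
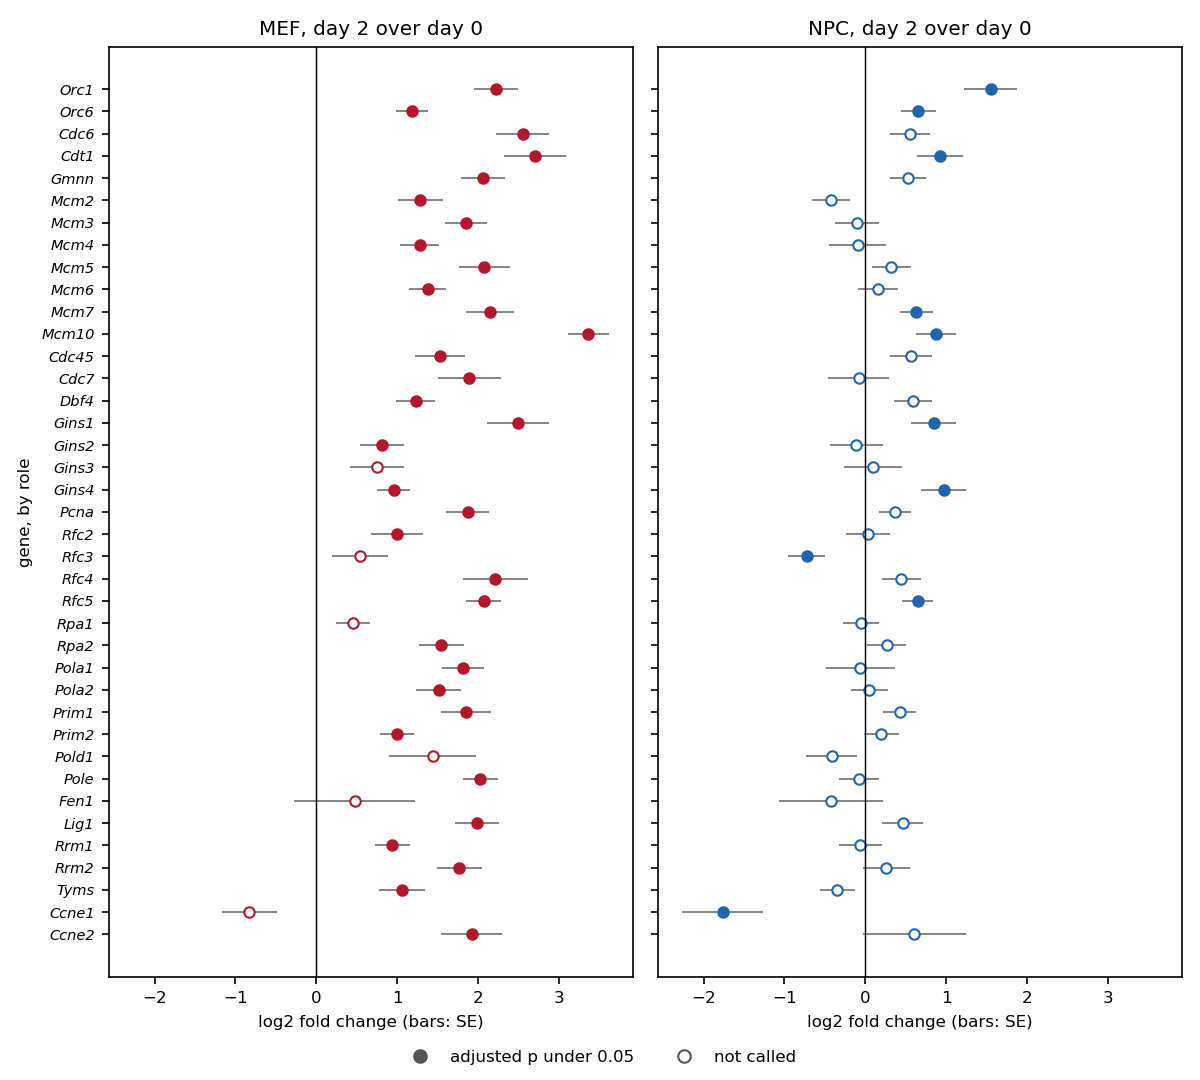
Points are log2 fold changes of day 2 over day 0 with SE bars, MEF left and NPC right, for the 39 genes by role, filled where edgeR's adjusted p was under 0.05. In MEFs 33 points are filled and lie above 0, up to 3.37 for Mcm10. In NPCs 10 are filled, 8 above 0 and Rfc3 and Ccne1 below it.

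Later steps of the MEF course were smaller. From day 2 to day 4, where the GFP label begins, 9 of the 39 were called lower and 0 higher, against 21.5% of all genes called in either direction, 10.5% higher and 10.9% lower, with a median of -0.31. The named falls were Ccne2 (-1.92 ± 0.37), Gins3 (-1.48 ± 0.34), Pola1 (-1.39 ± 0.25), Mcm4 (-1.14 ± 0.24) and Rrm2 (-1.06 ± 0.27). Ccne2, the second cyclin E gene, stood at 13.8 and 16.2 CPM at day 4, against 53.9 and 63.1 CPM at day 2. The libraries of the days did not overlap. The count was 0 without day 2 replicate 2, 2 without day 4 replicate 1 and 0 without day 4 replicate 3. In those fits the share of all genes called was lower too. DESeq2 called Mcm6 higher, and a fit of only the groups compared called Mcm6, Gins1, Rfc2 and Rpa2 higher.

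From day 4 to day 8, 11 of the 39 were called higher and 0 lower, against 19.8% of all genes in either direction, 11.1% higher and 8.68% lower, with a median of 0.49. They included Ccne2 (1.74 ± 0.37), Gins3 (1.48 ± 0.34), Cdc6 (1.28 ± 0.31), Rfc5 (1.11 ± 0.21), Rrm2 (1.02 ± 0.27) and Prim1 (0.98 ± 0.30). Only 1 was called when any 1 of the 4 libraries was left out, and none of the genes named here was. It was Mcm4 without day 4 replicate 1 and Mcm10 without each of the other 3. The share of all genes called was also lower in each of these fits than with every library kept. The 6 keratinocyte genes summed to 1641 and 1166 CPM at day 8 against 133 and 233 CPM at day 4, with at most 1 of the 6 at 0 in a library, and their part in the result was not tested. From day 8 to day 12, 3 of the 39 were called lower and 0 higher, against 11.4% of all genes in either direction, 7.33% higher and 4.1% lower. These were Rfc2 (-1.15 ± 0.32), Rfc5 (-0.97 ± 0.21) and Rpa1 (-0.84 ± 0.21), all of the clamp, loader and RPA group. The median was -0.62, and the count was 0 without day 8 replicate 1, day 8 replicate 2 or day 12 replicate 2. Of all genes 0% were called without either day 8 library and 0.173% without day 12 replicate 2. With library totals and no scaling factors it was 1, Dbf4 called higher, a setting that moved the median of all genes by 0.17 (log2). Dbf4 was also called higher by DESeq2 and without day 12 replicate 1.

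At the end of the MEF course most replication genes were still above their start. At day 12, 28 of the 39 were called higher and 1 lower than at day 0, against 51% of all genes in either direction, 26.3% higher and 24.6% lower, with a median of 1.39 beside 0.10 over all genes. Cdc6 had the largest rise, to 85.4 and 69.7 CPM at day 12 against 11 and 5.44 CPM at day 0 (3.17 ± 0.33, edgeR adjusted p = 7.20e-05). Mcm10 followed (2.99 ± 0.25), and Prim1 (1.94 ± 0.31), Rfc4 (1.88 ± 0.40), Lig1 (1.78 ± 0.27) and Rrm2 (0.94 ± 0.27) led their roles, the call of Rrm2 being lost without day 0 replicate 1. The gene called lower was Ccne1 (-1.90 ± 0.35, edgeR adjusted p = 0.00168).

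NPCs started with far higher levels and changed less in the first 2 days. Between days 0 and 2, 8 of the 39 were called higher and 2 lower, against 34.7% of all genes in either direction, 17.8% higher and 16.9% lower, with a median of 0.26 beside 0.04 over all genes. Orc1 rose, to 21.7 and 29.1 CPM at day 2 against 9.34 and 7.96 CPM at day 0 (1.55 ± 0.33, edgeR adjusted p = 0.00578), and Gins4, a GINS subunit, by 0.97 ± 0.27. The other rises were those of Cdt1, Mcm10, Gins1, Rfc5, Mcm7 and Orc6. Ccne1 (-1.76 ± 0.50) and Rfc3 (-0.72 ± 0.23) fell. The call of Orc1 was lost without day 0 replicate 2, that of Ccne1 without either day 0 library or day 2 replicate 1, and those of Gins4 and Rfc3 with any 1 of the 4 left out. Mcm2 (-0.43 ± 0.23), Mcm5 (0.32 ± 0.24), Cdc6 (0.55 ± 0.25), Pcna (0.37 ± 0.20) and Rrm2 (0.26 ± 0.29) were not called. The count was 1 without day 0 replicate 1, 0 without day 0 replicate 2, 2 without day 2 replicate 1 and 4 without day 2 replicate 2. With 1 library left out the share of all genes called was lower too. RLE size factors, and library totals with no scaling factors, each gave 3 higher and 2 lower of the 39.

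The NPC course was low at day 4. From day 2 to day 4, 8 of the 39 were called lower and 0 higher, where 2.22% of all 15565 genes were called in either direction, 1.68% higher and 0.546% lower, and all 39 log2 fold changes were below 0 (median -0.90). The called genes were Rrm2 (-1.54 ± 0.30), Mcm3 (-1.43 ± 0.28), Mcm10 (-1.26 ± 0.25), Prim1 (-1.20 ± 0.21), Tyms (-1.29 ± 0.22), Orc6 (-1.18 ± 0.22), Mcm5 (-1.11 ± 0.24) and Mcm7 (-0.97 ± 0.21). Summed over the list, the levels were 2145 and 2024 CPM at day 4, against 3691 and 4468 CPM at day 2. Both day 4 sums, of the library headed feeder and the one headed nofeeder, lay below all other NPC libraries. The count was 2 without day 2 replicate 1, 0 without day 2 replicate 2, 0 without day 4 replicate 1 and 1 without day 4 replicate 2. All genes called lower in those fits came to 0.27%, 0%, 0.0323% and 0.497% in the same order. DESeq2 called 22 lower, where it called 2.9% of all genes lower.

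The rise from day 4 to day 8 was the largest of the NPC course and coincided with the start of the GFP label there. Of the 39, 28 were called higher and 0 lower, against 32.6% of all genes in either direction, 15.4% higher and 17.2% lower, with a median of 1.07 beside -0.08 over all genes. Mcm5 rose to 313 and 287 CPM at day 8 against 81.9 and 67.4 CPM at day 4 (2.01 ± 0.25, edgeR adjusted p = 0.000824), and Gins1, a GINS subunit, to 92.6 and 56.9 CPM against 19.6 and 18.8 CPM (1.97 ± 0.29, edgeR adjusted p = 0.00161). Neither gene's libraries overlapped between the days. Rfc5 (1.56 ± 0.20), Pold1 (1.49 ± 0.32), Lig1 (1.10 ± 0.25) and Tyms (0.99 ± 0.22) led their roles, the calls of Lig1 and Tyms being lost without day 4 replicate 2. The keratinocyte genes summed to 824 and 841 CPM at day 8 against 76.2 and 70.4 CPM at day 4, with at most 1 of the 6 at 0 in a library, and the fibroblast genes to 535 and 769 CPM at day 8, with none at 0, against the day 4 sums above. The part of the keratinocyte genes was not tested, and without day 4 replicate 1, the library high in fibroblast genes, 25 of the 39 were called. Between 19 and 27 were called with any 1 of the 4 libraries left out, and the 27, without day 8 replicate 2, held 25 higher and 2 lower, Ccne2 and Pola1. The share of all genes called was also higher without day 8 replicate 2, and lower without any of the others. Of the 39, 17 were called with library totals and no scaling factors, a setting that moved the median of all genes by -0.35.

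From day 8 to day 12 in NPCs, 7 of the 39 were called lower and 1 higher, against 29.4% of all genes in either direction, 13.5% higher and 15.9% lower. Dbf4, the activating subunit of the Cdc7 kinase, rose to 192 and 193 CPM at day 12 against 76.6 and 95.4 CPM at day 8 (1.19 ± 0.24). The falls were those of Rfc2 (-1.54 ± 0.28), Gins2 (-1.01 ± 0.33), Rfc5 (-0.86 ± 0.19), Tyms (-0.85 ± 0.22), Rpa2 (-0.82 ± 0.24), Mcm5 (-0.81 ± 0.24) and Mcm7 (-0.81 ± 0.21). The calls of Dbf4 and Rfc2 were lost without day 12 replicate 2, that of Tyms without either day 12 library, that of Rfc5 without either day 12 library, that of Rpa2 without day 8 replicate 1 or day 12 replicate 2, and those of Mcm5, Mcm7 and Gins2 without day 8 replicate 1 or either day 12 library. The count was 4 without day 8 replicate 1, 15 without day 8 replicate 2, 4 without day 12 replicate 1 and 0 without day 12 replicate 2. The 15 held 9 lower and 6 higher, Dbf4 with Ccne2, Cdc7, Pola1, Gins3 and Mcm4. The share of all genes called was also lower without day 8 replicate 1 or either day 12 library, and higher without day 8 replicate 2. With library totals and no scaling factors 1 of the 39 was higher and 1 lower.

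At day 12 of the NPC course, 8 of the 39 were called higher and 4 lower than at day 0, against 47.6% of all genes in either direction, 24.1% higher and 23.5% lower, with a median of 0.09 beside 0.13 over all genes. Gins1 (2.01 ± 0.29) and Orc1 (1.54 ± 0.33) had the largest rises. Ccne1 (-3.45 ± 0.54), Tyms (-1.49 ± 0.22), Pola1 (-1.22 ± 0.44) and Rfc3 (-0.99 ± 0.23) fell. The call of Pola1 was lost with any 1 of the 4 libraries left out, that of Rfc3 without day 12 replicate 2, and 7 were called without day 0 replicate 1, day 0 replicate 2 or day 12 replicate 1. The share of all genes called was lower too in the fits that gave 7. RLE size factors gave 6 higher and 6 lower.

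Set against each other in a fit of all 22 libraries, many replication genes differed between the starting cells and none was called between the day 12 cells. At day 0, 30 of the 39 were called lower in MEFs than in NPCs and 0 higher, against 33.7% of 16188 genes in either direction, 16.3% higher and 17.4% lower, with a median of -1.34 beside -0.01 over all genes. Mcm10 stood at 11.8 and 7.78 CPM in MEFs against 50.4 and 58.2 CPM in NPCs (-2.44 ± 0.25, edgeR adjusted p = 9.69e-06). Cdc6 (-2.00 ± 0.30), Pold1 (-1.86 ± 0.49), Pcna (-1.79 ± 0.23), Lig1 (-1.70 ± 0.26) and Rrm2 (-1.65 ± 0.30) led the other roles, and the call of Pold1 was lost without MEF day 0 replicate 2. In these genes both MEF libraries were below both NPC libraries.

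At day 8, 0 of the 39 were called between the origins by edgeR or DESeq2. Of all genes, edgeR called 0.0185% and DESeq2 0.68%. At an unadjusted edgeR p under 0.05 were 5 of the 39, all higher in MEF-derived cells, and 1262 of all 16188 genes. The median of the 39 was 0.24. The largest difference was that of Ccne1, at 28.1 and 24.4 CPM in MEF-derived cells against 6.11 and 12.5 CPM in NPC-derived cells (1.49 ± 0.47, edgeR adjusted p = 0.467). Without NPC day 8 replicate 2, 4 were called higher, Ccne2, Pola1, Mcm4 and Mcm3, and of all genes 3.94% were higher and 1.71% lower in that fit. At day 12, 0 of the 39 were called by edgeR or DESeq2, with a median of -0.02. Of all genes, edgeR called 0% and DESeq2 0.395%. At an unadjusted edgeR p under 0.05 were 862 of all 16188 genes and 1 of the 39. That gene was Ccne1, at 9.49 and 16.1 CPM in MEF-derived cells against 4.53 and 5.99 CPM in NPC-derived cells (1.30 ± 0.48, edgeR adjusted p = 0.716). Mcm5 stood at 184 and 151 CPM against 181 and 158 CPM, ranges that overlap. Gins1 had the largest difference in the other direction (-0.67 ± 0.33). A missed threshold with 2 libraries per group does not show equal levels.

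The difference between the responses was tested as an interaction. For day 2 over day 0, 22 of the 39 responded more in MEFs and 0 less, against 8.06% of all genes in either direction, 4.08% higher and 3.98% lower, with a median difference of 1.53 beside -0.01 over all genes. Mcm10 changed by 3.37 ± 0.26 in MEFs and by 0.88 ± 0.25 in NPCs, and in the fit of all 22 libraries the difference was 2.61 ± 0.34 (edgeR adjusted p = 0.000566). Pole changed by 2.03 ± 0.22 in MEFs and -0.08 ± 0.25 in NPCs (difference 2.22 ± 0.32), and Cdc6 by 2.55 ± 0.33 and 0.55 ± 0.25 in the same order (difference 2.11 ± 0.42). The differences for Rfc4 (1.88 ± 0.47), Lig1 (1.64 ± 0.36) and Rrm2 (1.62 ± 0.41) were called too. These 3 calls were lost with one or more single libraries left out: Rfc4 with 6 of the 8, Rrm2 with 5 and Lig1 with 2. In each of the fits named next the share of all genes called was lower too. The count of 22 was 13 without MEF day 0 replicate 2, 12 without MEF day 2 replicate 1, 14 without NPC day 0 replicate 1, 11 without NPC day 0 replicate 2 and 13 without NPC day 2 replicate 1.

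For day 12 over day 0, 21 of the 39 had a called MEF minus NPC difference above 0, and 0 had one below it. Of all genes 14.7% were called in either direction, 8.53% higher and 6.19% lower (median difference 1.37, beside 0.07 over all genes). Mcm10 (2.40 ± 0.34), Mcm3 (2.09 ± 0.38), Pola1 (2.01 ± 0.55), Pcna (1.80 ± 0.31), Tyms (1.63 ± 0.35) and Lig1 (1.55 ± 0.36) led their roles. A difference above 0 can hold a fall in NPCs as well as a rise in MEFs. Tyms fell in NPCs (-1.49), while in MEFs its mean was 26.8% of the lines at day 0 and 29.0% at day 12. Pola1 fell in NPCs too (-1.22). Pcna stood at 349 and 249.9 CPM at day 12 against 101 and 72.4 CPM at day 0 in MEFs, and at 327 and 274 CPM against 309.7 and 304 CPM in NPCs. Its MEF libraries did not overlap between the days and its NPC libraries did. The call of Pola1 was lost with 4 of the 8 single libraries left out, and the count was 12 without MEF day 12 replicate 1, 13 without NPC day 0 replicate 1 and 13 without NPC day 12 replicate 2. In the fits that gave these counts the share of all genes called was lower too. Both responses hold the day 0 libraries in which the origins already differed, so the comparisons share those libraries.

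Against the pluripotent lines the replication genes were low at the start and at the end of both courses. At day 0, 38 of the 39 were called lower in MEFs than in the lines, all but Fen1 (58.7% of all genes in either direction, 30.5% higher and 28.1% lower, list median -2.46). In NPCs 27 of the 39 were called lower at day 0 (53.5% of all genes, 27.5% higher and 26% lower, list median -1.27). Orc1 led the licensing genes in both, at -4.05 ± 0.29 in MEFs and -3.52 ± 0.35 in NPCs. The other roles were led in MEFs by Mcm10 (-4.21 ± 0.27), Rpa2 (-3.28 ± 0.29), Lig1 (-3.26 ± 0.29), Pold1 (-2.74 ± 0.56), Rrm2 (-2.13 ± 0.28) and Ccne2 (-1.18 ± 0.37, lost without day 0 replicate 1). In NPCs they were led by Gins1 (-2.22 ± 0.29), Rpa2 (-1.87 ± 0.24), Lig1 (-1.66 ± 0.26), Prim1 (-1.23 ± 0.21) and Tyms (-0.60 ± 0.22, lost with any single NPC day 0 or line library left out). At day 12, 27 of the 39 were called lower in MEF-derived cells (41.4% of all genes, 23.5% higher and 17.9% lower, list median -1.20) and 28 in NPC-derived cells (39.7% of all genes, 21.4% higher and 18.3% lower, list median -1.18), with 0 higher in either. These comparisons share the line libraries, and each line has 1 library that is assumed to vary like the other groups. With either line library left out, most of the list was still called lower than the remaining line at days 0 and 12 for both origins. Fewer were called without R1 ESC than without SKM iPSC, except at day 0 of NPC origin, where the counts were equal.

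At day 12, Mcm3 of the helicase stood at 124 and 119.6 CPM in MEF-derived cells and 112 and 105 CPM in NPC-derived cells, against 685 CPM in R1 ESC and 642 CPM in SKM iPSC (-2.41 ± 0.26 for MEF and -2.61 ± 0.29 for NPC origin). Rpa2, a subunit of the single-strand binding protein, stood at 44.5 and 31.2 CPM and 49.3 and 35.4 CPM in the same order, against 175 CPM in R1 ESC and 152 CPM in SKM iPSC (-2.07 ± 0.28 and -1.94 ± 0.25). For both genes all day 12 libraries were far below both lines. Tyms (-1.76 ± 0.29 and -2.09 ± 0.23), Pola1 (-1.51 ± 0.25 and -1.70 ± 0.44) and Lig1 (-1.48 ± 0.27 and -1.34 ± 0.26) were also called lower in both, as were Gins2 of MEF origin (-1.35 ± 0.28) and Mcm10 of NPC origin (-1.18 ± 0.25) at the head of the firing genes. Pola1 of NPC origin was not called without day 12 replicate 1. Cdc6 was not called (-0.35 ± 0.30 and -0.42 ± 0.25). Cdc7, the kinase of origin firing, had day 12 means of 154% and 187% of the lines and was the only gene of the list above their mean at day 12, without being called in the fit with the other days (0.68 ± 0.37 and 0.93 ± 0.38). A fit of only the groups compared called Cdc7 higher of NPC origin (0.98, edgeR adjusted p = 0.00129). The NPC count fell without day 12 replicate 2, and so did the share of all genes called.

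**Figure D5:**
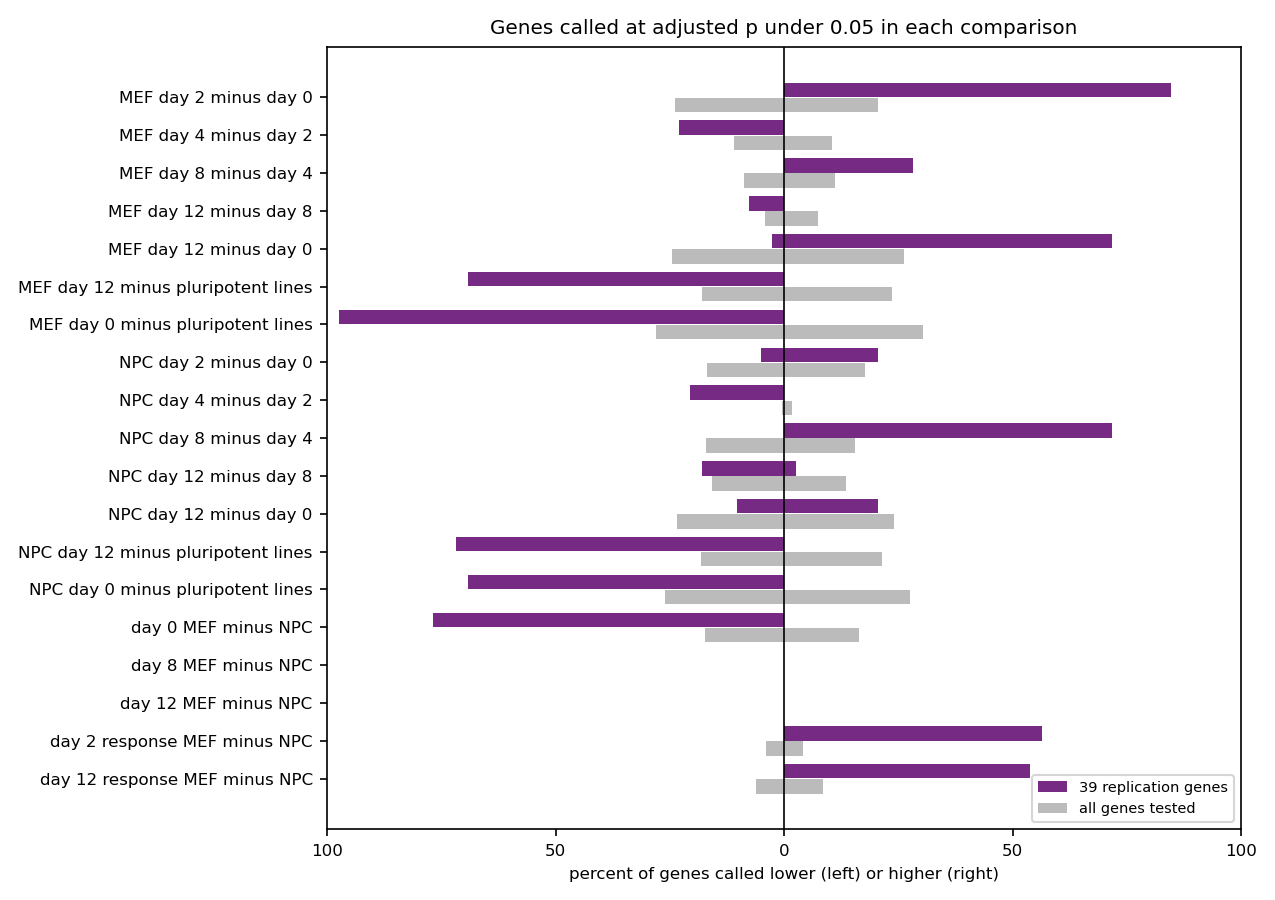
Bars show, for each of the 19 comparisons, the percentage of the 39 replication genes (purple) and of all genes tested (grey) called lower to the left and higher to the right by edgeR at adjusted p under 0.05. The list stands out to the right for MEF day 2 over day 0 (33 of 39). It also does for NPC day 8 over day 4 and MEF day 12 over day 0 (28 of 39 each) and for both differences between responses. It stands out to the left for day 0 MEF minus NPC (30 of 39) and against the pluripotent lines. Days 8 and 12 between origins hold no called gene of the list.

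Cyclin E was split. Ccne1 measured 32.4 and 59.2 CPM at day 0, 25.5 and 31.5 at day 2, 22 and 22.8 at day 4, 28.1 and 24.4 at day 8 and 9.49 and 16.1 CPM at day 12 in MEFs. NPC libraries of the gene held 59.6 and 58.9 CPM at day 0, 9.25 and 25.8 at day 2, 5.79 and 11.6 at day 4, 6.11 and 12.5 at day 8 and 4.53 and 5.99 CPM at day 12. By group mean it was highest at day 0 and lowest at day 12 in both courses, while the lines held 123 CPM in R1 ESC and 96 CPM in SKM iPSC. At day 12 it was called lower than in the lines in MEF-derived cells (-3.05 ± 0.37, edgeR adjusted p = 0.000219) and in NPC-derived cells (-4.36 ± 0.57, edgeR adjusted p = 0.000287). These were the largest differences of the list in both comparisons. Ccne2, its paralog, measured 8.5 and 19.4 CPM at day 0, 53.9 and 63.1 at day 2, 13.8 and 16.2 at day 4, 53.3 and 48.5 at day 8 and 20.1 and 28 CPM at day 12 in MEFs. Of NPC origin it stood at 43.7 and 28.1 CPM at day 0, 40.9 and 68.7 at day 2, 16 and 20.9 at day 4, 5.78 and 39.6 at day 8 and 28.3 and 28 CPM at day 12. By group mean it was highest at day 2 in both courses, its day 8 NPC replicates lay far apart, and at day 12 it was not called against the 34.4 CPM in R1 ESC and 33.2 CPM in SKM iPSC.

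Genes outside the list that act in the same processes were counted for context. Of 39 further replication genes, 28 were called higher and 1 lower at day 2 in MEFs (median 1.35), and 5 higher and 1 lower at day 2 in NPCs (median 0.20). Of all genes, 20.6% were called higher and 23.8% lower at day 2 in MEFs, and 17.8% and 16.9% in NPCs. The largest MEF changes were those of the polymerase delta subunit Pold2 (2.95 ± 0.53), the chromatin assembly factor Chaf1b (2.60 ± 0.29) and the fork protein Wdhd1 (2.28 ± 0.31), while Pold4, the small polymerase delta subunit, fell (-2.04 ± 0.37). Of 32 mitosis genes, 23 were called higher and 0 lower at day 2 in MEFs (median 1.37), led by the kinase Aurka (2.69 ± 0.23), and 3 higher and 1 lower in NPCs (median 0.08). In NPCs the called shares of both lists were below those of all genes. From day 4 to day 8 in NPCs 13 further replication genes and 10 mitosis genes were called higher and 0 of either list lower, led by thymidine kinase Tk1 (2.05 ± 0.27) and the centromeric histone Cenpa (1.72 ± 0.37, lost without day 4 replicate 2). At that step 32.6% of all genes were called in either direction, 15.4% higher and 17.2% lower.

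The 30 genes of E2F, Rb and G1 control did not move in 1 direction. At day 2 in MEFs 10 were called higher and 5 lower, 50% of the list where 44.4% of all genes were called. Cdkn2b, which encodes the Cdk4/6 inhibitor p15, averaged 7.35 ± 0.0949 CPM at day 2 and 86.2 ± 2.58 CPM at day 0 (SD, n = 2 each; log2 fold change -3.70 ± 0.30). Cdkn1b (p27) fell as well (-2.73 ± 0.54), as did Cdkn2a (-1.97 ± 0.27), Tfdp2 (-1.89 ± 0.43) and Cdkn2c (-1.30 ± 0.43, lost without day 0 replicate 1, day 2 replicate 1 or day 2 replicate 2), and Rb1 rose (2.05 ± 0.33). In NPCs 4 were called higher and 6 lower at day 2 (33.3%, against 34.7% of all genes), with Cdkn2b (-3.31 ± 0.55) and Cdkn2c (-2.07 ± 0.48, lost without day 0 replicate 2 or day 2 replicate 1) among the falls. The rises in NPCs were those of Rb1 (2.04 ± 0.43, lost without day 0 replicate 2), E2f6 (1.05 ± 0.24), Ccnd3 (1.02 ± 0.26) and Cdc25a (1.01 ± 0.23). The last 3 were lost without day 0 replicate 1 or replicate 2, E2f6 also without day 2 replicate 1 and Ccnd3 also without day 2 replicate 2. At day 12 against day 0, 6 were higher and 11 lower in MEFs (56.7%, against 51% of all genes) and 3 higher and 13 lower in NPCs (53.3%, against 47.6%), shares near those of all genes. Cdkn2b (-5.02 ± 0.33 in MEFs, -4.99 ± 0.61 in NPCs), Cdkn2c (-4.88 ± 0.52 and -6.32 ± 0.61) and Cdkn1b (-3.38 ± 0.56 and -4.74 ± 0.48) had the largest changes in both.

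The authors' deposited table of their own comparisons, whose test is not given in the sources used here, called fewer of the 39. At adjusted p under 0.05 the authors' deposited table had 8 higher at day 2 than at day 0 in MEFs (Orc1, Cdc6, Cdt1, Mcm7, Mcm10, Gins1, Rfc5 and Pole) and 0 in NPCs, where it called 13.2% of all genes in MEFs (4.74% higher) and 13.5% in NPCs. At day 12 against day 0 the authors' deposited table had 5 higher in MEFs, and 1 higher (Gins1) and 2 lower (Tyms and Ccne1) in NPCs, against 18.3% and 25% of all genes in either direction. It called 7.94% of all genes higher in MEFs, and 9.24% higher and 15.8% lower in NPCs. The MEF share of the list was below that of all genes in either direction and above it among genes called higher. The NPC shares were below those of all genes in both directions. Its comparisons with the lines run as lines over day, and by it 25 were lower at day 0 and 5 at day 12 for MEF origin, and 14 and 8 for NPC origin. Of all genes, the authors' deposited table called 24% and 14.7% in either direction for MEF origin and 27.5% and 16.3% for NPC origin, and 9.71%, 5.33%, 11.1% and 7.46% lower than in the lines in the same order. Between other days it had 1 higher, Ccne2 at day 8 against day 4 in MEFs, where 6.99% of all genes were called. For Ccne1 the authors' deposited table gave a log2 fold change of -3.56 at day 12 over day 0 in NPCs.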

How the data were processed

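RNA-seq of 22 libraries was read from 2 count tables, whose values the authors deposited as counts of reads per gene (whole numbers, no normalization), after FastQC and alignment to mm9 with STAR 2.5.1b, per the submitters' processing notes. The program that counted reads and its handling of strand are not given in the sources used here. The authors' deposited table of their own comparisons holds log2 fold changes and adjusted p-values, and was copied only where named. No column of per-sample values was left without a sample (0 columns). The 39 replication genes and all gene lists were chosen with earlier results of these data known. The day 0 to 12 labels are those of the sample titles.

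Genes with at least 1 CPM in at least 2 libraries were tested with edgeR 4.0.16 (R 4.3.3, limma 3.58.1) using TMM scaling and its quasi-likelihood test, with Benjamini-Hochberg adjustment over all genes and a call at adjusted p under 0.05. The fit held the 10 libraries of an origin with both lines, or all 22 libraries for comparisons between origins. A standard error is the log2 fold change divided by the root of its F value. The scripts were tested on simulated data. Members named in a comparison were the called one of largest change in each role and any called against the majority, with 16 members fixed for full description, and from other lists the 3 largest and those against the majority. Mcm10's course, further called genes, genes that were not called, genes called only under an alternative, and Pcna, Mcm3 and Rpa2 levels were added after their values were seen. Alternatives were RLE size factors, no scaling factors, no filter, DESeq2 1.42.0, a replicate block, a fit of only the groups compared, and leaving out single libraries. Same-numbered libraries of different days did not deviate together throughout (correlations of -0.123 to 0.382), so numbers were not taken as pairs. Counts of reads limit precision at low levels, since amplified reads are not independent molecules. Figures and sequence searches used Python 3.11.15, numpy 2.4.6, pandas 2.3.3 and matplotlib 3.10.9. Peak lists were not used here, as they are in mm9 and the promoter table is in GRCm38.p6.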

Additional observations from a re-analysis of the deposited data

Results flagged for a closer look

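The day 2 response of the replication genes differed between MEFs and NPCs by a test of the interaction (edgeR quasi-likelihood, adjusted over all genes): 22 of 39 responded more in MEFs and 0 less, against 8.06% of all genes in either direction. The differences in log2 fold change, MEF minus NPC, were 2.61 for Mcm10, 2.22 for Pole, 2.11 for Cdc6, 1.88 for Rfc4, 1.64 for Lig1 and 1.62 for Rrm2. The calls of Rfc4, Lig1 and Rrm2 were lost with some single libraries left out. The count fell with some single libraries left out, and so did the share of all genes called. It was 8 in a fit of only the groups compared, where 5.14% of all genes were called.

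The day 12 response differed in the same test for 21 of 39, all with a MEF minus NPC difference above 0. Of all genes 14.7% were called in either direction and 8.53% above 0. For Tyms and Pola1 the difference holds a called fall in NPCs. The differences were 2.40 for Mcm10, 2.09 for Mcm3, 2.01 for Pola1, 1.80 for Pcna, 1.63 for Tyms and 1.55 for Lig1. The call of Pola1 was lost with 4 of the 8 single libraries left out, and the count was as low as 12. In that lowest fit the share of all genes called was lower too. Both responses rest on the same day 0 libraries.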

How the results depend on the processing

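Of 344 calls of a replication gene in a comparison, 234 were kept with every single library left out. With 1 library left out, the numbers of the 39 called ranged as follows: in MEFs 30 to 36 at day 2 over day 0, 0 to 7 at day 4 over 2, 1 to 1 at day 8 over 4, 0 to 4 at day 12 over 8, 28 to 30 at day 12 over 0, 21 to 26 at day 12 and 35 to 38 at day 0 against the lines. In NPCs they were 0 to 4, 0 to 2, 19 to 27, 0 to 15, 7 to 8, 18 to 26 and 22 to 25 in that order. Between origins they were 25 to 30 at day 0, 0 to 4 at day 8, 0 to 0 at day 12, 11 to 25 for the day 2 response and 12 to 25 for the day 12 response.

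The replicate block gave 5 (MEF day 12 over 8) and 15 (NPC day 4 over 2), and was not fitted against the lines, which carry no replicate number. Replicate 3 occurs only at MEF day 4, so its block term fitted that library alone. For MEF day 4 over 2 and day 8 over 4 the block thus left only replicate 1 at day 4. It could not test pairing at these steps. A fit of only the groups compared gave 22 (MEF day 8 over 4), 11 (MEF day 12 over 8), 0 (NPC day 4 over 2), 12 (NPC day 8 over 4), 2 (NPC day 12 over 8), 21 (NPC day 12 over 0) and 8 (day 2 response). Library totals with no scaling factors gave 1, now higher (MEF day 12 over 8), 5 (NPC day 2 over 0), 2 (NPC day 4 over 2), 17 (NPC day 8 over 4) and 2 (NPC day 12 over 8). RLE gave 5 (NPC day 2 over 0). No filter gave 11 (MEF day 12 over 8), 3 (NPC day 2 over 0) and 11 (NPC day 12 over 0, with 5 higher and 6 lower, so that the majority turned). DESeq2 gave 7 (MEF day 12 over 8), 22 (NPC day 4 over 2) and 15 (NPC day 12 over 8). The cause was not tested. Taking library totals moved the median of all genes by -0.35 (NPC day 8 over 4) to 0.35 (day 12 response). The planned description of peaks at promoters was not run.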
